A study of Mus musculus with 6 samples.

Results

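Adenosine receptors and the enzymes and transporters that set adenosine levels were compared between the left and the right entorhinal cortex of the mouse. The set holds 9 genes, chosen by symbol: the receptors Adora1, Adora2a, Adora2b and Adora3, the enzymes Ada, Adk and Nt5e, and the transporters Slc29a1 and Slc29a2. Of these 9 genes, 8 had a row in the authors' deposited table of 18746 genes and 20414 rows, each with exactly 1 row. Ada, which encodes adenosine deaminase, had no row there.

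Both groups were untreated C57BL/6 wild-type mice aged 6 months, one group being the left and the other the right entorhinal cortex (EC), the gateway between neocortex and hippocampus. Each side had 3 Affymetrix Mouse Gene 2.0 ST arrays of total RNA, titled as biological replicates, and the labels do not say whether samples of both sides were taken from 1 mouse or whether tissue was pooled. Each row of a named gene in the authors' deposited table holds 1 signed fold and 1 p-value, and the per-array values carry row numbers that no source used here pairs with genes. No mean, SD or array-level value can therefore be given for a named gene, and the level of EC markers could not be checked.

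Adenosine is formed outside cells when nucleotides released as ATP are trimmed to AMP and then to adenosine by the ectonucleotidase encoded by Nt5e, also called CD73. Equilibrative transporters of the Slc29 family carry it across the membrane in either direction, and inside the cell adenosine kinase, encoded by Adk, returns it to AMP. The receptors encoded by Adora1 and Adora3 couple to inhibitory G proteins, and those encoded by Adora2a and Adora2b to G proteins that stimulate adenylyl cyclase. In the forebrain Adora1 is widespread in cortex and hippocampus, whereas Adora2a is densest in striatal neurons of the indirect pathway.

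The genes were chosen with the left-right result for Adora2a already known, so all folds and p-values of the set are a description of the contrast and test nothing about it. A fold was read as left over right, the likely coding, since the deposited table is titled left versus right. Sides are given on that reading. Because tissue was measured in bulk, a higher value from more cells of a type and one from more RNA per cell cannot be told apart.

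Among the receptors, Adora2a stood far from the other members. It was 1.98-fold higher in the right EC by the authors' deposited table (log2 fold -0.98, deposited p = 0.000855). By size of fold Adora2a held rank 11 of the 20414 rows of the authors' deposited table, and by deposited p rank 22. It was also 1 of the 6 genes of the authors' short table of selected genes, which is annotated with a p-value below 0.01 and in which every fold is also at least 1.5. After Benjamini-Hochberg adjustment over all 20414 rows the deposited p of Adora2a became 0.567. A fold of at least 1.5 together with a deposited p under 0.01 was found in 7 rows (0.0343%) of the authors' deposited table, and Adora2a was 1 of them.

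The remaining receptors lay close to equality between the sides. Adora2b, the low-affinity receptor of the stimulatory pair, was 1.08-fold higher in the right EC by the authors' deposited table (deposited p = 0.184). Adora1 was 1.03-fold higher in the left EC (deposited p = 0.372) by the authors' deposited table. Adora3 was 1.02-fold higher in the left EC (deposited p = 0.489) by the authors' deposited table. The stimulatory pair, Adora2a and Adora2b, was thus listed as higher in the right EC and the inhibitory pair, Adora1 and Adora3, as higher in the left EC, but the deposited p was under 0.05 for Adora2a alone of the 4 receptors.

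The transporters were listed on opposite sides. Slc29a1, the equilibrative nucleoside transporter ENT1, was 1.15-fold higher in the left EC by the authors' deposited table (log2 fold 0.20, deposited p = 0.00162). Its deposited p held rank 46 of all rows, whereas its fold held rank 1142, a small difference with a small p. The adjusted value over all 20414 rows of the authors' deposited table was 0.567, the same as for Adora2a. The adjustment gave that value to other rows too, such as those of Acpp and Gng7, so it marks no likeness between the genes. Slc29a2, which encodes ENT2, was 1.03-fold higher in the right EC (deposited p = 0.316) by the authors' deposited table.

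Both measured enzymes were listed slightly to the right. Adk, which in the adult brain is found mainly in astrocytes, was 1.04-fold higher in the right EC by the authors' deposited table (deposited p = 0.339). Nt5e was 1.03-fold higher in the right EC (deposited p = 0.565) by the authors' deposited table, the largest deposited p of the set.

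**Figure D1:**
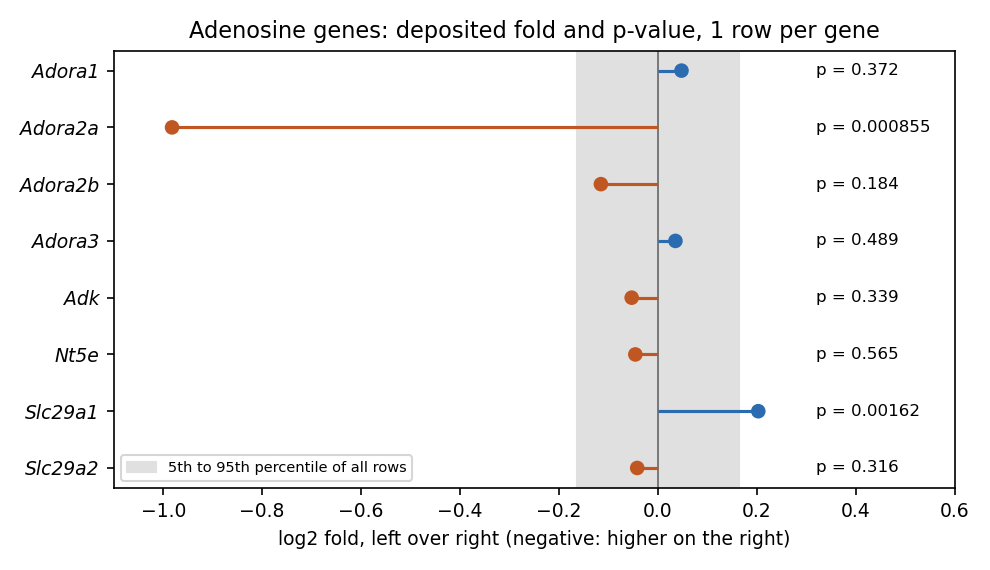
Signed log2 fold (horizontal axis, left over right) of the 8 adenosine genes listed in the authors' deposited table, blue where higher in the left EC and orange where higher in the right EC, with the deposited p beside each. The grey band spans the 5th to the 95th percentile of all rows, from -0.16 to 0.16, and Adora2a and Slc29a1 lie outside it.

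Of the 8 genes, 2 had a deposited p under 0.05, Slc29a1 on the left and Adora2a on the right, against 8.13% of all rows of the authors' deposited table. By side, that share was 3.81% of rows on the left and 4.33% on the right. The same 2 genes were past a deposited p of 0.01, against 1.66% of rows of the authors' deposited table. They were also the 2 that differed by at least 1.1-fold, against 14.2% of rows (7.38% on the left and 6.79% on the right). The other 6 genes lay between 1.02-fold and 1.08-fold. Of the 8 genes 5 were listed as higher in the right EC, against 45.9% of rows of the authors' deposited table, and the median log2 fold was -0.04 over the 8 genes and 0.01 over all rows.

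**Figure D2:**
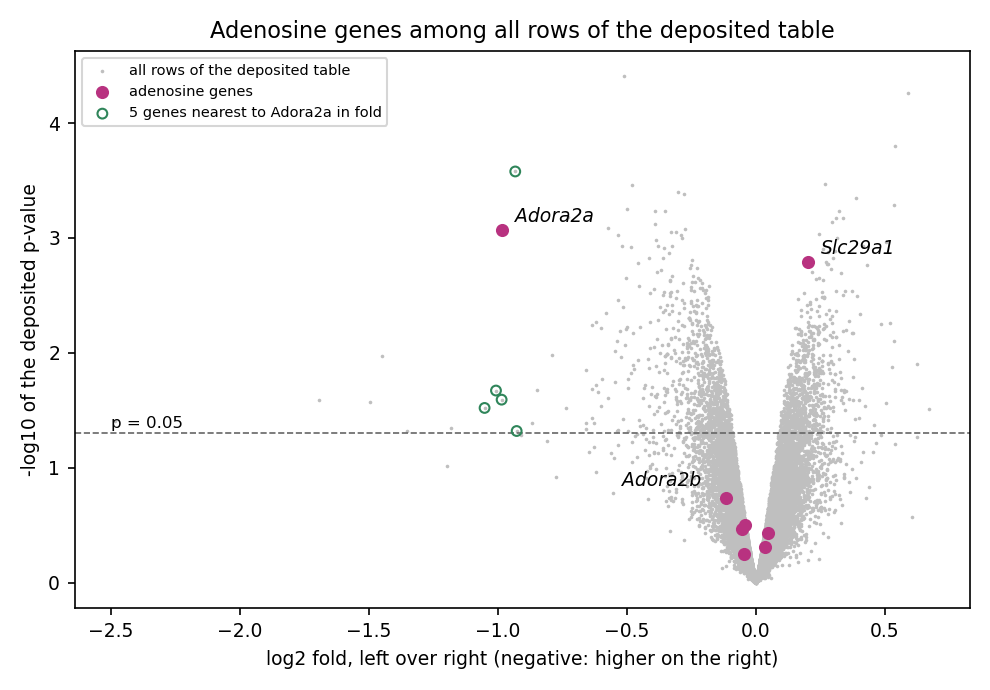
Signed log2 fold (horizontal axis) against -log10 of the deposited p (vertical axis) for all 20414 rows of the authors' deposited table in grey, the 8 adenosine genes as filled points and the 5 genes nearest to Adora2a in fold as open circles. Adora2a (log2 fold -0.98) and Slc29a1 (0.20) lie above the dashed line at a p of 0.05, and the other 6 adenosine genes lie below it near 0.

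The 5 genes with a deposited log2 fold nearest to that of Adora2a, among rows whose deposited p was under 0.05, were Prlr, Sostdc1, Mir204, Lbp and Clic6. Likeness here is the distance between 2 folds of 1 contrast and not a pattern over arrays. The prolactin receptor gene Prlr was 1.98-fold higher in the right EC by the authors' deposited table (deposited p = 0.0256). Sostdc1, a secreted antagonist of BMP and Wnt signals, was 2.01-fold higher in the right EC (deposited p = 0.0213) by the authors' deposited table. Mir204 differed from these in its p, at 1.91-fold and a deposited p of 0.000264 by the authors' deposited table. Lbp had a log2 fold of -0.93 (deposited p = 0.048) and Clic6 was 2.07-fold higher in the right EC (deposited p = 0.0302) by the authors' deposited table. A total of 13 rows were at least 1.9-fold higher in the right EC by the authors' deposited table, and among them Adora2a had the second smallest deposited p, after Mir204. The deposited p of the other 11 ran from 0.0108 to 0.0969.

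The genes next to Adora2a and Slc29a1 on their chromosomes did not have folds of that size. By gene order in the mouse assembly GRCm38.p6, the 3 nearest genes with a row on each side of Adora2a were Rtdr1, Bcr and Specc1l, and Gm5779, Gucd1 and Snrpd3. Of these 6, 3 were higher in the left EC and 3 on the right by the authors' deposited table, with folds of at most 1.12 (Rtdr1) and deposited p-values from 0.0807 to 0.921. The immediate neighbours of Adora2a differed by 1.02-fold (Specc1l) and 1.01-fold (Gm5779), both to the right, by the authors' deposited table. Around Slc29a1, 7 of 8 rows were higher in the left EC and 1 on the right by the authors' deposited table. Of all rows, 45.9% were higher on the right, and some of the 8 rows share a gene (Tcte1, Tmem63b). The folds of these 8 rows were at most 1.05 (Nfkbie), with a smallest deposited p of 0.177 (Hsp90ab1, an abundant heat shock protein gene). No neighbour of either gene overlapped it, whereas Adora1 overlaps Mybph, which was 1.03-fold higher in the left EC (deposited p = 0.285) by the authors' deposited table. Each of the 8 genes had 6 neighbour rows, or 8 for Slc29a1. Of these rows 0 had a deposited p under 0.05, against 8.13% of all rows of the authors' deposited table.

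**Figure D3:**
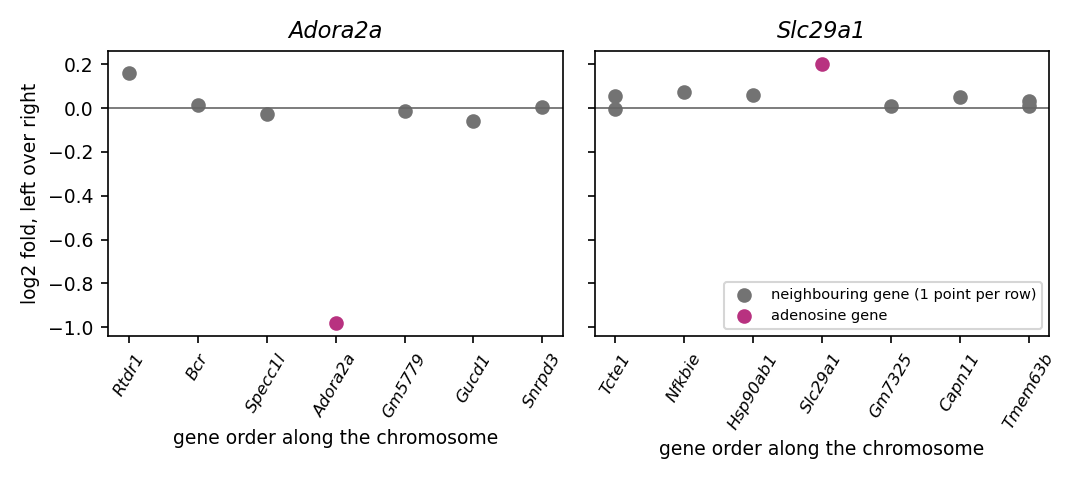
Signed log2 fold (vertical axis, left over right) of Adora2a and Slc29a1 (filled in colour) and of the 3 nearest genes with a row on each side (grey, 1 point per row), in chromosome order and not to distance. Adora2a lies at -0.98 while its neighbours lie between -0.06 and 0.16.

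The wider pathway was read from 7 lists of 89 genes, of which 68 had a row, 75 rows in all. In the table the authors deposited, 4 of these rows on the left and 6 on the right had a p under 0.05, 13.3% together, against 8.13% of all rows (3.81% on the left and 4.33% on the right). The 6 rows on the right include 2 rows of the same gene, Entpd4. None of the 75 reached 1.5-fold. The median log2 fold over the 75 rows was -0.01. The largest fold among the pathway rows was 1.24, that of Dpp4, against 1.98 for Adora2a.

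Upstream of adenosine, the list of enzymes that break down extracellular nucleotides had 14 rows for 10 of its 13 genes, 7 listed on each side, with a median log2 fold of 0.00. Those with a deposited p under 0.05 were 2 rows to the left and 2 to the right, against 3.81% and 4.33% of all rows. The 2 on the left were of different genes, and the 2 on the right were both rows of Entpd4. Acpp, the prostatic acid phosphatase that can also turn AMP into adenosine, was 1.22-fold higher in the left EC by the authors' deposited table (deposited p = 0.0121). Enpp3, a nucleotide pyrophosphatase, was 1.15-fold higher in the left EC (deposited p = 0.00538) by the authors' deposited table. Entpd4, an intracellular nucleotidase, had 4 rows that disagreed in side, from 1.08-fold on the right (deposited p = 0.04) to 1.02-fold on the left by the authors' deposited table. Entpd1, which encodes the ATP- and ADP-cleaving enzyme CD39 that acts before Nt5e, was 1.04-fold higher in the right EC (deposited p = 0.265) by the authors' deposited table.

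Of the 5 other nucleoside transporter genes 4 had a row, 5 rows with a median log2 fold of -0.14. Slc29a4, a further member of the Slc29 family that also carries monoamines and is known from choroid plexus epithelium, was 1.22-fold higher in the right EC by the authors' deposited table (deposited p = 0.0229). Slc28a2, a sodium-driven concentrative transporter, was 1.14-fold higher in the left EC (deposited p = 0.024) by the authors' deposited table. The Slc29 family thus held Slc29a1 at 1.15-fold on the left and Slc29a4 at 1.22-fold on the right, with Slc29a2 and both rows of Slc29a3 (log2 folds -0.06 and -0.14) on the right by the authors' deposited table. The list of intracellular adenosine metabolism had 12 rows for 11 of 16 genes and a median of -0.01. It had 0 rows with a deposited p under 0.05, against 8.13% of all rows. Its largest fold was that of Ahcy, which splits S-adenosylhomocysteine into adenosine and homocysteine, at 1.14-fold on the left (deposited p = 0.268) by the authors' deposited table.

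Of the 6 ATP release genes 4 had a row, with a median of -0.01, and Calhm1, an ATP-permeable channel, was higher in the left EC by the authors' deposited table (log2 fold 0.14, deposited p = 0.0103). The receptors for ATP, ADP and related nucleotides had 13 rows for 13 of 15 genes and a median of -0.09. Of the 13 rows 9 were to the right, against 45.9% of all rows. The 9 include a row that is counted again in the microglial list. P2ry1, an ADP receptor, was the 1 gene of that list with a deposited p under 0.05, against 8.13% of all rows. It was higher in the right EC by the authors' deposited table (log2 fold -0.26, deposited p = 0.011).

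Downstream of the receptors, the signalling list had 21 rows for 20 of 26 genes, with a median of 0.00. It held 2 rows with a deposited p under 0.05, both on the right, against 8.13% of all rows (4.33% on the right). Gng7, the G protein gamma subunit that works with the Gnal product in the striatum, was 1.15-fold higher in the right EC by the authors' deposited table (deposited p = 0.00454). The adenylyl cyclase gene Adcy6 was 1.08-fold higher in the right EC (deposited p = 0.024) by the authors' deposited table. Gnal itself, the stimulatory alpha subunit through which Adora2a signals in striatal neurons, was 1.07-fold higher in the right EC (deposited p = 0.182) by the authors' deposited table. The list of proteins known to associate with the Adora2a receptor or, in some species, with adenosine deaminase had 6 rows for 6 of 8 genes. Its median was 0.02 and it had 0 rows with a deposited p under 0.05, against 8.13% of all rows. Its largest fold was that of Dpp4, which encodes a cell-surface peptidase, at 1.24-fold on the left by the authors' deposited table (deposited p = 0.0595). Adcy5, Ppp1r1b and Drd2 had no row in the authors' deposited table.

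Markers of striatal neurons were listed on both sides, at folds smaller than that of Adora2a. The list of indirect-pathway markers had a row for 2 of its 7 genes, Gpr52 at 1.06-fold on the right (deposited p = 0.166) and Ptprm at 1.01-fold on the left (deposited p = 0.717) by the authors' deposited table. Its defining genes Drd2, Penk and Gpr6 had no row there. All 6 rows of the direct-pathway list were right-sided (median -0.04), against 45.9% of all rows, and so were all 6 oligodendrocyte rows (median -0.03). Of the 6 direct-pathway rows, 5 had a deposited p from 0.344 to 0.934, and Tac1, the substance P precursor, stood at 1.13-fold by the authors' deposited table (deposited p = 0.0146). The general striatal list had 8 rows for 8 of 11 genes, 5 of them right-sided, its median was -0.08, and it held 4 rows with a deposited p under 0.05, all on the right, against 4.33% of all rows. These were Pde7b (1.12-fold, deposited p = 0.00903), Rasd2 (1.13-fold, 0.0277), Rxrg (1.16-fold, 0.0347) and Rgs9 (1.15-fold, 0.0488) by the authors' deposited table. The 3 left-sided rows were those of Strn4 (1.05-fold), Ido1 (1.02-fold) and Foxp1 (1.02-fold), with deposited p-values of 0.166, 0.682 and 0.695 by the authors' deposited table. The largest fold among the striatal rows counted here was 1.16, against 1.98 for Adora2a. Because the levels of these markers cannot be read, the part of striatal tissue in the Adora2a value was not tested.

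Choroid plexus markers were the list with folds as large as that of Adora2a. All 7 rows, for 7 of 10 genes, were higher in the right EC (median log2 fold -1.05), against 45.9% of all rows, and 5 had a deposited p under 0.05, against 4.33% of all rows on that side. The range ran from 1.58-fold for Aqp1 (deposited p = 0.046) to 5.59-fold for Ttr (deposited p = 0.0392) by the authors' deposited table. Kl was 2.82-fold higher in the right EC (deposited p = 0.0268) by the authors' deposited table. Sostdc1 and Clic6, which belong to this list, are also among the 5 genes nearest to Adora2a in fold, and the part of choroid plexus in the values of Adora2a and Slc29a4 was not tested.

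The other cell type lists had smaller medians. The median log2 fold was 0.15 over 6 meningeal and fibroblast rows, -0.08 over 8 microglial rows, -0.04 over 4 endothelial rows and -0.03 over 6 oligodendrocyte rows. None of these rows had a deposited p under 0.05 by the authors' deposited table, against 8.13% of all rows. Right-sided were 7 of 8 microglial, 3 of 4 endothelial, 6 of 6 oligodendrocyte and 6 of 7 astrocyte rows, against 45.9% of all rows. The meningeal list had 4 left-sided and 2 right-sided rows, and its smallest deposited p was that of Lum, 1.13-fold to the right (0.0639), by the authors' deposited table. Its largest folds were those of Islr (1.26-fold, deposited p = 0.211) and Aldh1a2 (1.22-fold, deposited p = 0.186), both on the left by the authors' deposited table. Astrocytes, the main site of Adk, had a median of -0.07 over 7 rows, with Slco1c1 at 1.13-fold (deposited p = 0.0443) and Slc1a2 at 1.06-fold (deposited p = 0.0496) on the right by the authors' deposited table. The cortical excitatory list had a median of 0.04 over 5 rows (3 left-sided, 2 right-sided), with Tbr1 at 1.13-fold on the left by the authors' deposited table (deposited p = 0.0346), and the EC layer 2 list 0.07 over 5 rows with 0 past that p.

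**Figure D4:**
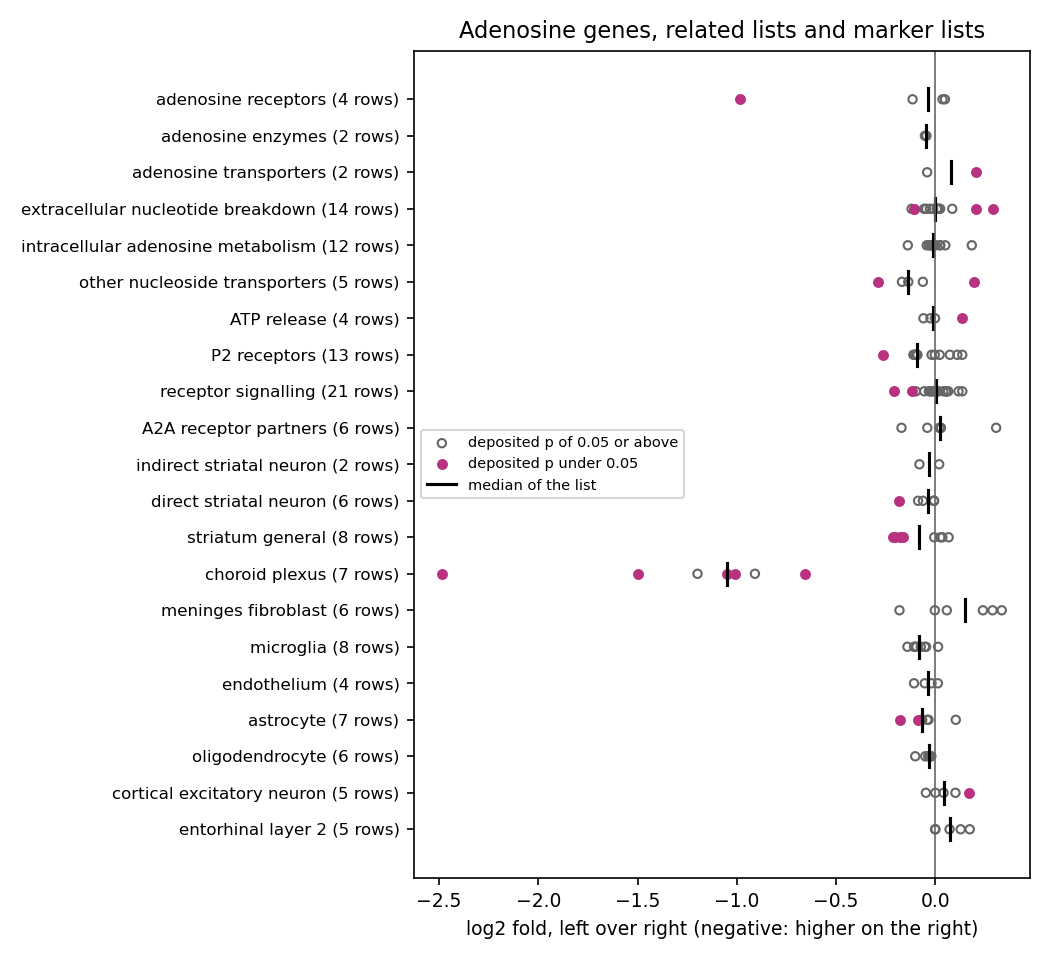
Signed log2 fold (horizontal axis, left over right) of each row of the adenosine genes, the pathway lists and the marker lists of the authors' deposited table, filled where the deposited p was under 0.05, with a bar at each median. Adora2a lies at -0.98 and the median of the choroid plexus rows at -1.05, and all rows of the pathway and striatal lists have smaller folds. The levels of these genes cannot be read, and the tissue source of the Adora2a value was not tested.

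In the per-array values as a whole, 41345 unnamed rows of log2 signal with array medians from 7.24 to 7.28, none passed limma's adjusted p of 0.05. An unadjusted limma p under 0.05 was found in 3023 rows (7.31%), 1255 of them higher in the left EC, 1768 on the right. The number of arrays, 3 per side, limits the precision of both tables. Where nothing states separate animals, these p-values measure only the spread between the samples.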

How the data were processed

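Total RNA of the left and right EC was hybridised to 3 arrays per side, per the labels' protocols. The authors deposited a p-value and a signed fold for each row of a table of all genes, a shorter table of selected genes, and log2 signals per array, whose scale was inferred from the values. Ratios below 1 are written as the negative reciprocal. Ingenuity iReport was used per the series' design text, and the summarization, normalization and test behind the values are not stated there, in the labels or in the file headers. Signed folds were turned into log2 folds, rows of 1 symbol were kept apart, and Benjamini-Hochberg adjustment ran over all rows. All 8 member identifiers carried the same symbol in the RefSeq gene table of GRCm38.p6. Per-array values were fitted with side alone by limma 3.58.1 (R 4.3.3; functions lmFit and eBayes, two-sided p), after a test on simulated data. Members and lists were chosen with earlier results of these data known. A gene of the striatal marker list is not reported here and was left out of that list's counts. Genes were named where the deposited p was under 0.05 or the fold at least 1.2, up to 5 per list by smallest p, together with the members, their chromosome neighbours, the 5 genes nearest to Adora2a in fold and reference genes; Entpd1, Gnal, Ahcy, Gpr52, Ptprm, Strn4, Ido1, Foxp1, Lum, the rows of Slc29a3 and the neighbours were named after their values were seen. Alternatives were other thresholds, averaged rows, centring, and for limma the replicate block, normalization, filtering, variance models and leaving out each array. Limma values of named genes could not be had.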

Additional observations from a re-analysis of the deposited data

How the results depend on the processing

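The count of 2 adenosine genes, Adora2a and Slc29a1, was the same at a deposited p under 0.01, at one under 0.1 and at a fold of at least 1.1. Averaging rows of 1 symbol could not change it, since each of the 8 genes has 1 row. Centring the log2 folds on the median of all rows, an alternative chosen after seeing the data, left 5 of 8 genes on the right. That median was 0.007, below the smallest log2 fold of the 8 genes (0.035, Adora3), so centring could not turn any gene's side. Leaving out an array or a replicate block could not be run for named genes, since they have no per-array values. In the per-array table the number of rows past limma's adjusted p of 0.05 was 0 in every alternative run. The count at an unadjusted p was 1808 (572 left, 1236 right) in a fit limited to rows brighter than the median row. That fit held fewer rows, so its count cannot be set against the 3023 of the full table. When 1 array was left out the count was 2104 to 3829. Without right replicate 2 the left led with 1952 rows against 1877 for the right (the cause was not tested). With the replicate number as a replicate block the count was 2790. Same-numbered arrays correlated at 0.02, -0.09 and 0.05 in their deviations from the side means, so the numbers were not taken as pairs.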
